A study of Saccharomyces cerevisiae with 44 samples.

Results

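Transcript levels of yeast cells lacking KAR4 were compared with those of cells lacking STE12 before any mating pheromone was given. The members of the comparison were the 8 libraries whose titles name either deletion, no treatment and 0 h, out of 44 libraries in all: 4 of the kar4 deletion strain (kar4Δ) and 4 of the ste12 deletion strain (ste12Δ). The labels give the kar4Δ strain ACY01 (kar4::KanMX) and the ste12Δ strain ACY02 (ste12::KanMX), each built in the strain VM05, and nothing there says how many clones of each were used. Both strains share the rest of the genotype with the wild type (WT, VM05): mating type a, ade1 bar1 cln1 cln2 cln3 his2 trp1 ura3, and leu2:LEU2::GAL-CLN3, a copy of the G1 cyclin gene CLN3 under a galactose promoter. Cultures grown in galactose at 30 °C spent 3 h in glucose to stop in G1 and were then frozen. Replicates 1 and 2 of each strain came from batch 1 and replicates 3 and 4 from batch 2. The 4 WT libraries of the same batches at 0 h serve below as background.

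Ste12 is the transcription factor at the end of the mating pathway. It binds the pheromone response element TGAAACA, alone or beside Mcm1 or Tec1, and sustains a basal output of mating genes even when no pheromone is present. Kar4 is a partner of Ste12 that is needed for the induction of genes of nuclear fusion, such as KAR3 and CIK1, and it also belongs to the mRNA methyltransferase complex that acts in meiosis. Setting the deletions against each other asks which part of the basal programme needs Ste12 and which needs Kar4.

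The deposited table gave expected counts, and a level below is counts per M (mega) counts of the scaled library total (CPM). The kar4Δ libraries held 5.87 M to 15.6 M counts, the ste12Δ libraries 10.0 M to 12.7 M and the WT libraries 4.25 M to 10.6 M. Features of ribosomal RNA took 0.165% to 4.14% of a library, and Ty retrotransposon features took 17.8% to 27.1% in kar4Δ, 10.8% to 15.2% in ste12Δ and 15.4% to 23% in WT. The highest Ty share, 27.1%, was that of kar4Δ replicate 2. The scaling factors of the trimmed mean of M-values (TMM) were 0.981 to 1.03 in kar4Δ and 1.12 to 1.17 in ste12Δ. The labelled mating type was met in both strains. HMRA1, whose sequence is also that of the a1 gene at the mating-type locus, had 29.8 to 36.3 CPM in kar4Δ and 22.2 to 25.8 CPM in ste12Δ, while the alpha gene MATALPHA1 stayed under 1 CPM in every library of both strains. The labels mark CLN1 and CLN2 as mutated in every strain, yet CLN1 averaged 118 ± 11.9 CPM in kar4Δ and 135 ± 17.7 CPM in ste12Δ, and CLN2 186 ± 5.86 CPM in kar4Δ and 161 ± 8.20 CPM in ste12Δ (SD, n = 4 each).

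The deleted genes were checked first. KAR4 held 0 counts in all 4 kar4Δ libraries and 278, 253, 285 and 243 counts in the ste12Δ libraries. Against a floor of 3 counts per library, KAR4 was at least 60.0-fold lower in kar4Δ than in ste12Δ, and at least 140.4-fold lower than in WT. STE12 held 1625, 3694, 2120 and 1929 counts in kar4Δ and 10, 3, 60 and 23 counts in ste12Δ, a log2 fold change of 7.05 ± 0.41 (SE). Both labels were met, but the ste12Δ libraries were not empty of STE12. Replicates 3 and 4, from batch 2, held more of it than replicates 1 and 2: STE12 stood at 0.31%, 0.104%, 1.79% and 0.762% of the mean kar4Δ level of the same batch. Other genes that were nearly absent from ste12Δ moved with it, among them the Ty3 feature YIL082W at 0.383%, 0.257%, 2.05% and 1.05% and the a-specific gene ASG7 at 1.79%, 0.893%, 7.42% and 4.19%. The part of these residual counts in the results was not tested, so counts of calls without both ste12Δ libraries of batch 2 are given where they move by over 1.5 times, and some smaller moves are also given. KAR4 itself was lower in ste12Δ than in WT: it averaged 20.8 ± 1.68 CPM in ste12Δ and 48.8 ± 8.08 CPM in WT (SD, n = 4 each), a log2 fold change of -1.22 of ste12Δ over WT. STE12 did not pass the test for kar4Δ over WT, with 245 ± 20.3 CPM in kar4Δ and 200 ± 17.5 CPM in WT. Genes beside the deleted loci differed little between the strains. Of the 12 neighbours examined, chosen by position, 3 passed the test, a share near the 27.5% of all features tested. They were SAM35 at -0.37, KSP1 at -0.30 and PRD1 at -0.31 (log2).

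Of 6161 features tested, 1697 (27.5%) differed between kar4Δ and ste12Δ by edgeR's quasi-likelihood test at a Benjamini-Hochberg adjusted p under 0.05. In kar4Δ, 784 of them (12.7% of features tested) were higher and 913 (14.8%) lower. Counts of called members of a list below are to be read beside these shares. A feature that passed is called higher, lower or changed below, always kar4Δ relative to ste12Δ, and a log2 fold change without a further name is kar4Δ over ste12Δ. The larger differences lay mostly on the higher side: of 204 features (3.31%) changed by at least 2-fold, 142 (2.3%) were higher and 62 (1.01%) lower. The 4 kar4Δ libraries did not overlap the 4 ste12Δ libraries for 1355 features (22%). The split of small differences depended on the scaling. With library totals alone, 311 features were higher and 2218 lower, and the median of all features was -0.18 in place of 0.00 (log2). A lower level in such bulk RNA can mean fewer cells of a kind or less RNA per cell, which cannot be told apart. The labels do not say that replicates were separate cultures, so the spread between replicate libraries that the p-values rest on may be technical. That spread was estimated over 24 libraries, which include WT and alpha-factor libraries, and not over the 8 alone.

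**Figure D1:**
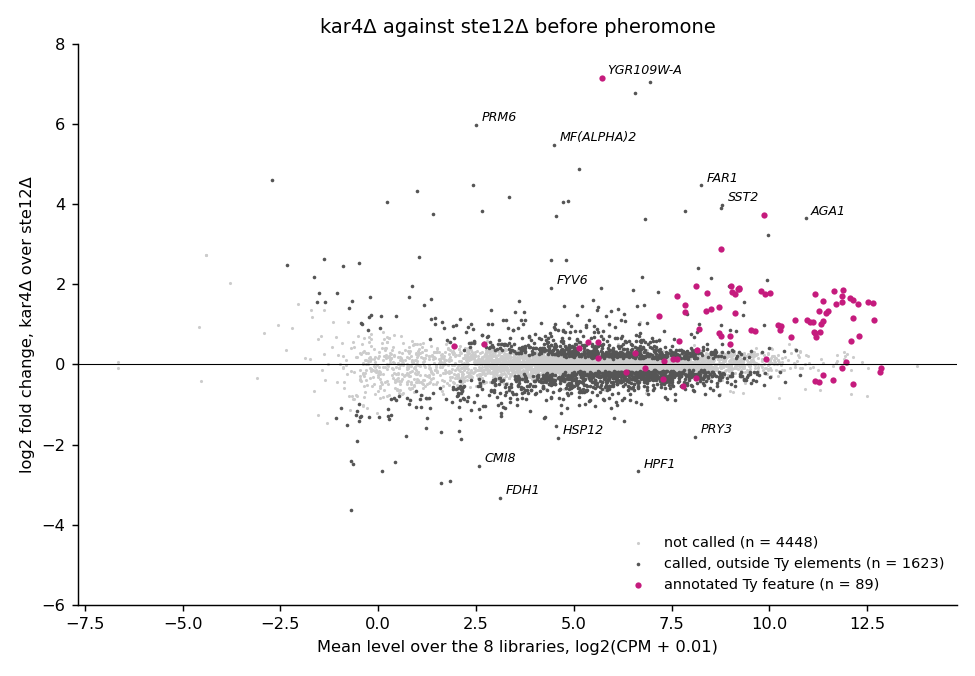
Mean level over the 8 libraries (x axis, log2 of CPM plus 0.01) against the log2 fold change of kar4Δ over ste12Δ (y axis) for the features tested, without KAR4. Each point is a feature, and grey, dark and magenta points are features not called, called features outside Ty elements and annotated Ty features. The region above 1 holds many mating genes and Ty features, and fewer points lie below -1.

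The pheromone and receptor genes of a cells were higher in kar4Δ as a group. All 7 tested members of the list of a-specific, ligand and receptor genes were higher, with a median log2 fold change of 3.82 against 0.00 over all features. The eighth member, the alpha-factor protease gene BAR1, is marked as mutated in all strains, had at most 0.333 CPM in kar4Δ and 0.0887 CPM in ste12Δ, and did not pass the filter on low counts. MFA1, which encodes the pheromone a-factor, had 1134, 652, 765 and 727 CPM in kar4Δ and 36.1, 32.8, 95.9 and 59.6 CPM in ste12Δ. The lowest kar4Δ library was above the highest ste12Δ library, and the log2 fold change was 3.90 ± 0.44 (SE; edgeR adjusted p = 4e-07). The second a-factor gene, MFA2, differed less, with 598 ± 145 CPM in kar4Δ and 134 ± 19.3 CPM in ste12Δ (SD, n = 4 each).

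STE2, the receptor for alpha-factor, had 1984, 1343, 1564 and 1437 CPM in kar4Δ and 355, 350, 387 and 368 CPM in ste12Δ. The groups did not overlap, and the log2 fold change was 2.11 ± 0.13 (SE; edgeR adjusted p = 1e-11). STE6, the exporter of a-factor, was higher by 1.95 and STE14, which methylates a-factor and was chosen after its values were seen, by 1.21 (log2). The agglutinin subunit gene AGA2 was higher by 3.82, the a-factor barrier gene AFB1 by 4.05, and ASG7, an a-specific modulator of the G protein, by 4.88 (log2). Against WT, no member of the list changed in kar4Δ (median -0.08, log2) and all 7 were lower in ste12Δ (median -3.91). MFA1 was at -0.18 in kar4Δ and -4.07 in ste12Δ (log2 over WT). These are values side by side, since both contrasts use the same WT libraries.

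The cascade that carries the signal split into genes that differed and genes that did not. Of 14 genes of the G protein and MAP kinase list, 7 were higher in kar4Δ and none lower, with a median log2 fold change of 0.22. With library totals alone, 7 were higher and 4 lower and the median was 0.05. GPA1, the alpha subunit of the G protein, had 155, 153, 135 and 125 CPM in kar4Δ and 38.7, 41.6, 40.6 and 36.2 CPM in ste12Δ. The groups stood far apart with little spread, at a log2 fold change of 1.85 ± 0.06 (SE; edgeR adjusted p = 3.1e-16). FUS3, the mating MAP kinase, had 223 ± 16.6 CPM in kar4Δ and 63.7 ± 2.47 CPM in ste12Δ (SD, n = 4 each), a log2 fold change of 1.81. The other G protein subunits STE4 and STE18 were higher by 0.57 and 0.88, the kinase KSS1 by 0.45 and the GTPase CDC42 by 0.48 (log2). The scaffold STE5, the kinases STE7, STE11 and STE20, the adaptor STE50 and the polarity genes BEM1 and CDC24 did not pass the test.

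FAR1, which joins the pathway to G1 arrest and to polarity, was the most changed of the cascade. It had 765, 585, 554 and 433 CPM in kar4Δ and 27.9, 24.9, 31.2 and 20.4 CPM in ste12Δ. Every kar4Δ library was above every ste12Δ library, with a log2 fold change of 4.47 ± 0.24 (SE; edgeR adjusted p = 6.96e-13). Of the 9 genes of negative feedback, 4 were higher and 1 lower. SST2, which turns off the G protein, had 956, 757, 871 and 769 CPM in kar4Δ and 41.5, 46.2, 67.0 and 58.0 CPM in ste12Δ, a log2 fold change of 3.99 ± 0.13 (SE; edgeR adjusted p = 7.16e-17). AFR1 and HSL7 were higher by 0.79 and 0.83, and the phosphatase gene PTP2 was lower, at -0.36 (log2). DIG1 and DIG2, the inhibitors that hold Ste12, were at 0.08 each and did not pass, nor did MCM1, its DNA-binding partner, at -0.05. A list of 7 genes put partners of Ste12 and Kar4 together with FAR1, which is a pathway gene and not a partner. In it TEC1 and FAR1 were higher and the corepressor genes TUP1 and CYC8 lower, at -0.34 and -0.35 (log2).

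**Figure D2:**
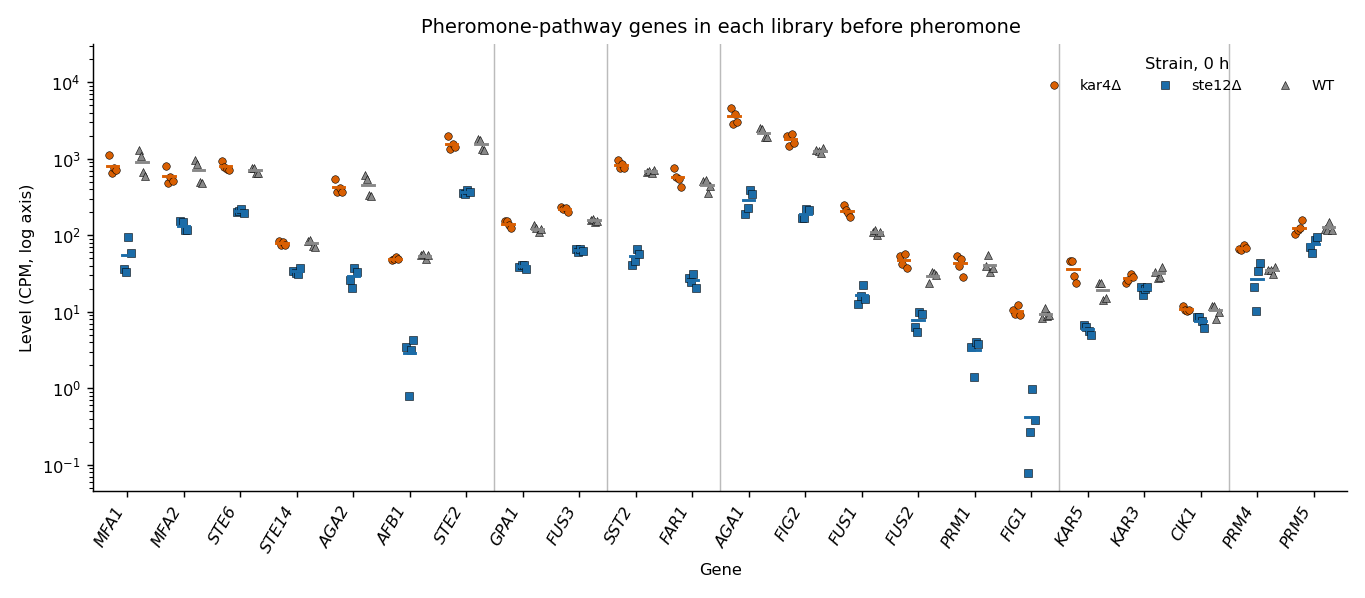
Level (CPM, log axis) of 22 mating genes in each 0 h library, with kar4Δ as orange circles, ste12Δ as blue squares and WT as grey triangles. A bar marks the mean of 4 libraries, and vertical lines part the genes by role, from pheromone and receptor genes at the left to nuclear fusion and PRM genes at the right. The kar4Δ means lie near or above the WT means, with the ste12Δ means below them. The ste12Δ and kar4Δ means are closest for KAR3 and CIK1, and for PRM4 the ste12Δ points overlap the WT points.

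Genes of agglutination and cell fusion were higher in kar4Δ in 8 of 12 cases and lower in 1, with a median log2 fold change of 1.70. AGA1, the anchor of the a agglutinin, had 4597, 2904, 3861 and 3042 CPM in kar4Δ and 191, 226, 389 and 347 CPM in ste12Δ. The ste12Δ libraries of batch 2 were higher than those of batch 1 but far under any kar4Δ library, and the log2 fold change was 3.65 ± 0.21 (SE; edgeR adjusted p = 4.08e-12). FUS1, a membrane protein of the fusion site, had 249, 218, 195 and 173 CPM in kar4Δ and 12.7, 16.0, 22.5 and 14.9 CPM in ste12Δ. It also had 111 ± 5.86 CPM in WT (SD, n = 4), so that the kar4Δ libraries lay above WT and the ste12Δ libraries below it. The log2 fold change was 3.64 ± 0.15 for kar4Δ over ste12Δ, 0.91 for kar4Δ over WT and -2.73 for ste12Δ over WT, and all 3 contrasts passed the test. PRM1, which acts in the merging of the plasma membranes, had 54.4, 39.4, 49.9 and 28.9 CPM in kar4Δ and 3.48, 1.42, 4.06 and 3.81 CPM in ste12Δ, with 41.4 ± 9.21 CPM in WT. It was higher by 3.71 in kar4Δ than in ste12Δ and stood at 0.06 over WT (log2). FUS2 was higher by 2.60, the agglutinin-like FIG2 by 3.22 and FIG1, a membrane protein of calcium entry, by 4.47 (log2). CHS3, a chitin synthase, was higher by 0.36, and the polarisome gene SPA2 was lower, at -0.32.

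Promoter windows of 4 genes, each of which holds the response element, show where it lies. FUS1 and PRM1 belong to the list of agglutination and cell fusion, in which 5 of 12 windows (41.7%) held it, and TEC1 and PRM6 do not. All 4 genes were higher in kar4Δ by at least 2-fold. The 300 bases before the annotated gene start are printed from the RefSeq genome (build R64, the sequence also named sacCer3), 5′ to 3′ on the gene's strand. Capitals mark TGAAACA or its reverse complement TGTTTCA.
FUS1 (III:71503-71802, + strand): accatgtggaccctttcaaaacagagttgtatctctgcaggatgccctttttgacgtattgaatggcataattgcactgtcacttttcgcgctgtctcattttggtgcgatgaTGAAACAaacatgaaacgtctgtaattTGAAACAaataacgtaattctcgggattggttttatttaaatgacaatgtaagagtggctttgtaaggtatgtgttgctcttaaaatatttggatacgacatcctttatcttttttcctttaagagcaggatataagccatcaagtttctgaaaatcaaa
PRM1 (XIV:110617-110916, + strand): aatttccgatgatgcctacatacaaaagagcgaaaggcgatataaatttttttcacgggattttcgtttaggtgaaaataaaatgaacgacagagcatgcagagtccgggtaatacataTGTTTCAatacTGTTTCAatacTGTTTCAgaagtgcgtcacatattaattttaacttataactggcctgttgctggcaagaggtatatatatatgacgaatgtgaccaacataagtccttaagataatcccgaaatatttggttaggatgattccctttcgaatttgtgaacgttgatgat
TEC1 (II:408869-409168, + strand): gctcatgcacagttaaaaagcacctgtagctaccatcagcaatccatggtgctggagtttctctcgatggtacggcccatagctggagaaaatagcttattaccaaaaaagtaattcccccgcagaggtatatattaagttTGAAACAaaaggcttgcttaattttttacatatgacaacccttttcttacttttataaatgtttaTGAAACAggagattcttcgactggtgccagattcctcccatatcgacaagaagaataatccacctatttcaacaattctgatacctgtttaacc
PRM6 (XIII:181076-181375, - strand): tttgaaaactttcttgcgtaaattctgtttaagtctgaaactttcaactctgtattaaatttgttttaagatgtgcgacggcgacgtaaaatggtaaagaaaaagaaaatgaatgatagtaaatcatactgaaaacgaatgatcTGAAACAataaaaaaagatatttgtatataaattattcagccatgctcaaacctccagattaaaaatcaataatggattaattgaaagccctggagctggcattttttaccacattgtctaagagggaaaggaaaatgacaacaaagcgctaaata

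FUS1 held 2 elements, which began 187 and 160 bases before the gene. PRM1 held 3, all in the reverse direction, at 181, 170 and 159 bases. TEC1 held 2, at 159 and 94 bases, and PRM6 held 1, at 156 bases. Over all features outside Ty elements that were tested and code for protein, 394 of 5661 such windows (6.96%) held the element on either strand. Among those higher in kar4Δ by at least 2-fold, 24 of 74 (32.4%) held it, and 7 (9.46%) held 2 or more, against 19 (0.336%) of all windows. Among those higher by less than 2-fold it stood in 104 of 608 (17.1%). Of the genes lower in kar4Δ, 3 of 43 (6.98%) of those lower by at least 2-fold and 39 of 825 (4.73%) of the rest held it. Of the 43, 2 (4.65%) held 2 or more, PRY3 and KAR4. KAR4 is itself deleted in kar4Δ, so it stands in this set by design, also as 1 of the 3. The deleted gene STE12 stands among the 74 in the same way, and its window held none. Several strongly changed genes, among them MFA1, FAR1, FIG1 and KAR5, had no exact match in the window. These shares are a description, and a match of 7 letters is not a bound site.

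Nuclear fusion, the step for which KAR4 is named, gave differences of very unequal size. Of 10 genes, 5 were higher in kar4Δ and none lower, with a median of 0.38 (log2), and 4 were higher without both ste12Δ libraries of batch 2. KAR5, which acts in the fusion of the nuclear envelopes, had 46.4, 46.5, 29.9 and 24 CPM in kar4Δ and 6.65, 6.39, 5.60 and 5.05 CPM in ste12Δ. Batch 1 was higher than batch 2 in kar4Δ, and the groups did not overlap. The log2 fold change was 2.60 ± 0.13 (SE; edgeR adjusted p = 3.68e-13), with 0.94 for kar4Δ over WT and -1.67 for ste12Δ over WT.

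PRM3, a partner of KAR5 at the nuclear envelope, had 31, 92, 40 and 34 counts in kar4Δ and 2, 0, 12 and 4 counts in ste12Δ. It was higher by 3.75 ± 0.40 (log2, SE), and without both ste12Δ libraries of batch 2 the fitted value was 5.94. That value rests on the 2 and 0 counts left in ste12Δ, so it depends on the prior count and is no bound. The motor gene KAR3 and its partner CIK1 differed far less. KAR3 had 27.4 ± 3.07 CPM in kar4Δ and 19.7 ± 2.00 CPM in ste12Δ, and CIK1 had 10.8 ± 0.658 CPM in kar4Δ and 7.72 ± 1.21 CPM in ste12Δ (SD, n = 4 each). Both were higher, KAR3 by 0.47 and CIK1 by 0.48 (log2), and CIK1 did not pass in batch 1 alone (0.37, edgeR adjusted p = 0.0642). Against WT, neither passed in kar4Δ, at -0.23 for KAR3 and 0.05 for CIK1, and both were lower in ste12Δ, at -0.70 and -0.43. VIK1, the other partner of KAR3, and BIK1, KAR1 and KAR2 lay between -0.05 and 0.01 and did not pass.

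PRM2, the third gene of the nuclear envelope step, behaved otherwise. It held 8, 14, 7 and 7 counts in kar4Δ and 10, 0, 14 and 6 counts in ste12Δ, against 69, 144, 134 and 213 counts in WT. The deletion groups overlapped, and their log2 fold change of 0.66 did not pass the test (edgeR adjusted p = 0.285). Against WT, PRM2 was lower in both strains, at -4.29 in kar4Δ and -4.95 in ste12Δ (log2). The windows of KAR4, which was lower in ste12Δ than in WT, and of PRM2 are shown as above.
KAR4 (III:27629-27928, + strand): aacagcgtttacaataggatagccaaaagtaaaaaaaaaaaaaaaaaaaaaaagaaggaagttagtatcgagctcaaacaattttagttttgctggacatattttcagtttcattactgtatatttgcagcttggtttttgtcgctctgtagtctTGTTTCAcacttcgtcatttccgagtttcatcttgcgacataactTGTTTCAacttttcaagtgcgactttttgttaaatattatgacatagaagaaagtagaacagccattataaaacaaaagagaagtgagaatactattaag
PRM2 (IX:285000-285299, - strand): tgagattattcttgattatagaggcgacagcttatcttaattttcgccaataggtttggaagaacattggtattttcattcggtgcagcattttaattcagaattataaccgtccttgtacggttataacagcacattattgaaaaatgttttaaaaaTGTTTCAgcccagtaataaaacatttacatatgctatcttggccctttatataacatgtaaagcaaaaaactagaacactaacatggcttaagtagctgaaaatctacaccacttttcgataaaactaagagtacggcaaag

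KAR4 held 2 elements, at 145 and 100 bases before the gene, and PRM2 held 1, at 142 bases, all in the reverse direction. PRM1 and PRM6, whose windows also held the element, stood at 0.06 and 1.78 for kar4Δ over WT (log2).

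PRM6, which encodes a potassium transporter, was the most changed of the remaining PRM genes, a set named for regulation by pheromone and for membrane proteins. It held 103, 161, 85 and 63 counts in kar4Δ, 1, 0, 5 and 2 counts in ste12Δ and 12, 21, 19 and 41 counts in WT. It was higher by 5.98 ± 0.44 (log2, SE), and kar4Δ was above WT by 1.78. PRM4 had 66.9, 64.2, 75.7 and 68.1 CPM in kar4Δ and 21.1, 10.3, 34.5 and 43.2 CPM in ste12Δ. The ste12Δ libraries spread widely, with those of batch 2 higher, and the log2 fold change of 1.36 became 2.09 without these. Against WT, PRM4 was higher in kar4Δ by 0.99 and did not pass in ste12Δ, at -0.38 (log2). PRM5 was higher by 0.70. In all, 3 of 7 were higher and none lower (4 higher without both ste12Δ libraries of batch 2), and PRM7, PRM8, PRM9 and PRM10 did not pass, at -0.75, 0.30, 0.18 and -0.18.

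Genes of the opposite mating type showed the same direction. Of 4 alpha-specific genes, 3 were higher in kar4Δ. MF(ALPHA)2, which encodes alpha-factor, had 48.9, 52.2, 38.6 and 36.5 CPM in kar4Δ and 0.317, 0.355, 1.89 and 1.09 CPM in ste12Δ. The groups did not overlap, and the log2 fold change was 5.49 ± 0.41 (SE; edgeR adjusted p = 3.55e-10). MF(ALPHA)1 was higher by 4.08, and SAG1, the alpha agglutinin, by 2.42, with 488 ± 85.3 CPM in kar4Δ and 91.2 ± 7.80 CPM in ste12Δ. All 3 were also higher in kar4Δ than in WT, by 1.07, 0.59 and 0.74, and lower in ste12Δ than in WT, at -4.42, -3.49 and -1.68 (log2). The receptor gene STE3, an established marker of alpha cells, stood under 1 CPM in all 8 libraries and did not pass, at 0.24.

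IME4, the catalytic subunit of the methyltransferase to which Kar4 also belongs, held 4, 8, 3 and 4 counts in kar4Δ and 2, 3, 2 and 1 counts in ste12Δ, against 7, 11, 9 and 16 counts in WT. It passed the test as higher (edgeR adjusted p = 0.0211), but a fitted fold change on so few counts depends on the prior count. No library compared held 10 counts of it, the minimum of the filter. IME4 therefore entered the test through other libraries among the 24 fitted. The call was lost in 5 of the alternatives that tested it, where the edgeR adjusted p lay between 0.0623 and 0.172. IME4 overlaps an antisense transcript, and without knowledge of the strand setting their reads cannot be told apart. Of the 12 tested genes of the methylation and meiosis list, 4 were higher and 1 lower, and 1 was higher and 1 lower without both ste12Δ libraries of batch 2. SPO11, which makes the breaks of meiotic recombination, was higher by 1.15, with 3.73 ± 0.692 CPM in kar4Δ and 1.71 ± 0.182 CPM in ste12Δ (SD, n = 4 each).

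Retrotransposons made up 45 of the 142 features that were higher by at least 2-fold. Ty3, whose expression responds to pheromone, was the strongest, and all 4 of its features were higher. YGR109W-A had 129, 125, 99.9 and 62.2 CPM in kar4Δ and 0.317, 0.177, 1.54 and 0.622 CPM in ste12Δ, against 205, 252, 218 and 193 CPM in WT. The order was therefore WT, kar4Δ, ste12Δ, with no overlap between neighbours. YGR109W-A was higher in kar4Δ than in ste12Δ by 7.15 ± 0.37 (log2, SE) and lower than in WT at -1.09 in kar4Δ and -8.24 in ste12Δ. The other Ty3 copy, YIL082W, was at 6.78, and the longer open reading frames YGR109W-B and YIL082W-A were at 2.87 and 3.74 (log2). All 4 were lower than WT in both strains. Copies share sequence, and YGR109W-A overlaps YGR109W-B, so the split of reads between them is uncertain.

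The abundant Ty1 features differed less, and not all in 1 direction. Of 61, chosen as a group after seeing values, 40 were higher and 5 lower, with a median of 1.17 (log2). All 20 Ty2 features (median 0.87) and all 5 Ty4 features (median 0.51) were higher. Summed Ty1 levels were 160204, 239998, 139542 and 160731 CPM in kar4Δ and 115047, 115786, 82187 and 76321 CPM in ste12Δ, with no overlap. Replicate 2 of kar4Δ stood apart, and without it 39 Ty1 features were higher and 5 lower, with a median of 1.08. Against WT, none of the 61 changed in kar4Δ, while 39 were lower and 5 higher in ste12Δ.

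Genes of filamentous growth, which Ste12 controls together with Tec1, were higher in kar4Δ in 6 of 14 cases and lower in 1. TEC1 had 198, 178, 184 and 147 CPM in kar4Δ and 40.8, 33.1, 41.0 and 41.0 CPM in ste12Δ. The groups did not overlap, and the log2 fold change was 2.18 ± 0.09 (SE; edgeR adjusted p = 1e-14). WSC2, a sensor of the cell wall, was higher by 1.49, the Cdc42 effector gene GIC2 by 1.02 and the membrane mucin gene MSB2 by 0.83 (log2). NFG1, a negative regulator of filamentous growth, was among the 10 largest differences, with 19.3 ± 2.51 CPM in kar4Δ and 1.03 ± 0.458 CPM in ste12Δ, a log2 fold change of 4.18. FLO11, the flocculin of this programme, did not pass, at 0.10.

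Of the 10 genes of G2 and M phase, 4 were higher in kar4Δ, 1 was lower and 5 did not pass, with a median of 0.19 (log2). CDC20, an activator of the anaphase-promoting complex, had 45.8, 48.8, 49.5 and 45.3 CPM in kar4Δ and 20.8, 19.7, 19.1 and 21 CPM in ste12Δ. The groups were far apart, and the log2 fold change was 1.24 ± 0.08 (SE; edgeR adjusted p = 1.26e-11). The mitotic cyclin gene CLB2 was higher by 0.97, while CLB1 and CDC5, also markers of budded cells, did not pass, at -0.01 and 0.18. Against WT, none of the 10 changed in kar4Δ, and 4 were lower and 1 higher in ste12Δ. SLI15, of the chromosomal passenger complex, was chosen after its values were seen and had 81.9 ± 8.43 CPM in kar4Δ and 21.7 ± 1.53 CPM in ste12Δ, a log2 fold change of 1.91. Of 21 genes of G1 and S phase, 3 were higher and 6 lower (2 and 4 without both ste12Δ libraries of batch 2). The cohesin gene MCD1 was higher by 1.11 and the cyclin gene PCL2 by 0.94, and the G1 activator gene SWI4 was lower, at -0.51 (log2). Of 10 genes of daughter-cell separation, 3 were higher and 2 lower (2 and 2 without those libraries). AMN1 was higher by 1.04 and the chitinase gene CTS1 by 0.80, and the glucanase gene DSE4 was lower, at -0.49. The CTS1 call was lost without both ste12Δ libraries of batch 2 (0.62, edgeR adjusted p = 0.0512).

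CLN3, the cyclin gene under the galactose promoter, was lower in kar4Δ. It had 58.7, 50.2, 57.4 and 45.7 CPM in kar4Δ and 84.5, 99.8, 104 and 104 CPM in ste12Δ, against 76.7, 56.2, 110 and 96.7 CPM in WT. The deletion groups did not overlap, and the log2 fold change was -0.89 ± 0.17 (SE; edgeR adjusted p = 0.000454). The galactose genes went the other way, with 5 of 6 higher and none lower and a median of 0.64 (log2). GAL7 had 29.7 ± 4.42 CPM in kar4Δ and 15.4 ± 3.30 CPM in ste12Δ (SD, n = 4 each), and GAL2, the galactose permease gene, was higher by 1.10. The calls of GAL2 and GAL10 were lost without a batch term, and that of GAL10 also in batch 1 alone (0.57, edgeR adjusted p = 0.173). With library totals alone 3 of the 6 were higher, and without both ste12Δ libraries of batch 2, 4 were.

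**Figure D3:**
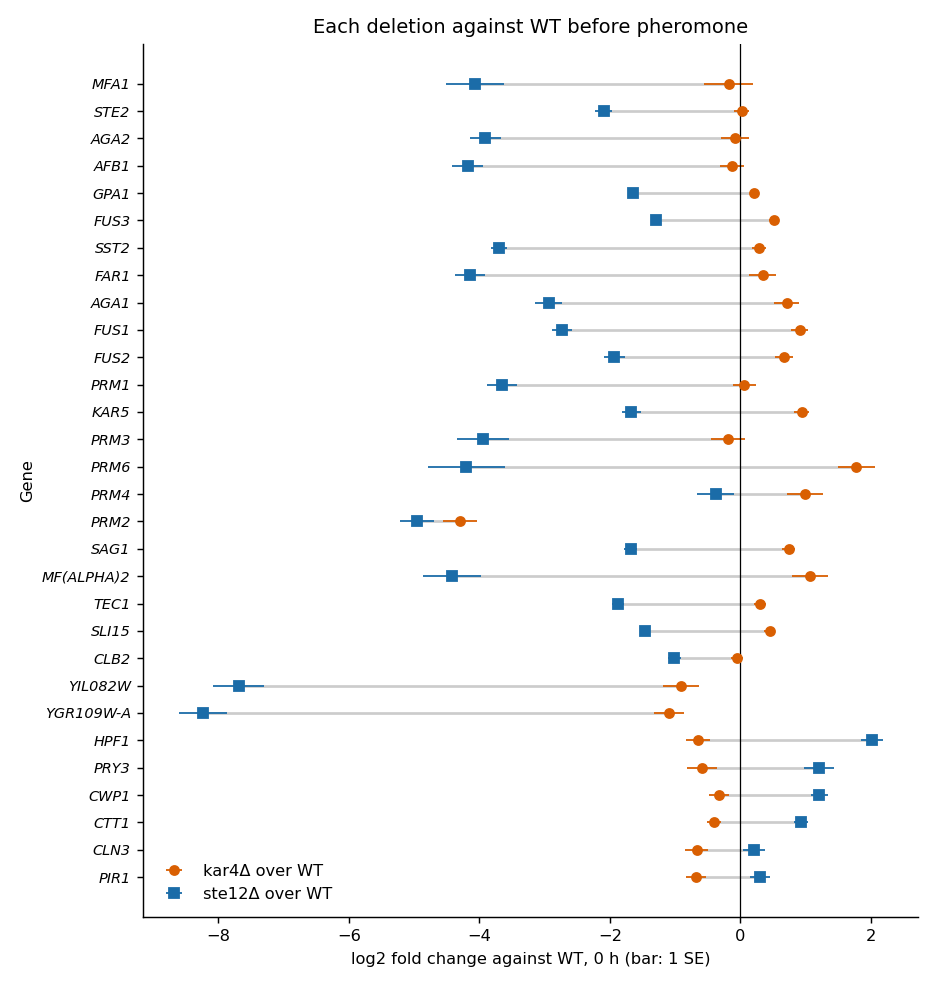
Log2 fold change against WT at 0 h (x axis; bars are 1 SE) of 30 genes (y axis) in kar4Δ (orange circles) and ste12Δ (blue squares), joined by a grey line. Most mating genes lie near or above 0 in kar4Δ and far below 0 in ste12Δ, whereas PRM2 lies below -4 in both. Both strains were set against the same 4 WT libraries.

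On both the higher and the lower side, ste12Δ was called against WT for more of these features than kar4Δ. Among the 142 features higher in kar4Δ by at least 2-fold, ste12Δ was called lower than WT for 130 and kar4Δ was called higher than WT for 20, of which 18 met both. Their median was 1.56 for kar4Δ over ste12Δ, 0.16 for kar4Δ over WT and -1.49 for ste12Δ over WT (log2). Among the 62 features lower by at least 2-fold, ste12Δ was called higher than WT for 46 and kar4Δ lower than WT for 9, of which 5 met both. Against WT as a whole, 738 features (12%) changed in kar4Δ, 360 of them higher (5.84%) and 378 lower (6.14%), and 12 changed by at least 2-fold (0.195%). In ste12Δ, 1389 features (22.5%) changed, 32 of them higher by at least 2-fold (0.519%) and 124 lower by at least 2-fold (2.01%). Both deletions were called lower than WT for 127 of the 6161 features tested, and 20 of these also differed between kar4Δ and ste12Δ. Apart from KAR4 itself, those lower than WT by at least 2-fold in both were PRM2, IME4 and the Ty3 features YGR109W-A and YGR109W-B. Both were called higher for 72 features, none by at least 2-fold in both. The 2 contrasts share the same 4 WT libraries, and a deviation of WT moves both in the same direction. These counts are therefore no measure of effects common to the deletions.

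The genes lower in kar4Δ included several of the cell wall. HPF1, a mannoprotein of the wall, had 24.1, 25.8, 32.0 and 27.6 CPM in kar4Δ and 141, 197, 179 and 178 CPM in ste12Δ, against 42.8 ± 9.10 CPM in WT (SD, n = 4). The groups did not overlap, and HPF1 was lower at -2.67 ± 0.17 (log2, SE; edgeR adjusted p = 2.95e-11), with -0.65 for kar4Δ over WT and 2.02 for ste12Δ over WT. PRY3, a sterol-binding-family protein of the wall, had 123, 126, 139 and 104 CPM in kar4Δ and 555, 397, 362 and 397 CPM in ste12Δ, a log2 fold change of -1.80 ± 0.23 (SE). Its window held 2 elements. The wall protein genes CWP1 and PIR1 were at -1.54 and -0.98. Of 18 wall genes, 2 were higher and 6 lower.

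FDH1 and FDH2, which encode formate dehydrogenases, had among the largest differences but an uneven level. FDH1 had 0.998, 1.83, 1.64 and 1.38 CPM in kar4Δ and 2.53, 27.4, 4.34 and 29.5 CPM in ste12Δ. Replicates 2 and 4 of ste12Δ were high, 1 in each batch, while replicates 1 and 3 were only just above kar4Δ. FDH1 was lower at -3.33 ± 0.68 and FDH2 at -2.96 ± 0.71 (log2, SE; edgeR adjusted p = 0.000727 for FDH1 and 0.00305 for FDH2), and FDH2 was not called in batch 1 alone (-2.69, edgeR adjusted p = 0.0722). FDH2 overlaps YPL276W and their reads are not independent, which bears on the 4 of 4 members of the formate dehydrogenase list that were lower. CMI8, an uncharacterised gene beside MFA1 that is transcribed toward it, had 1.68 ± 0.367 CPM in kar4Δ and 10.3 ± 1.70 CPM in ste12Δ, a log2 fold change of -2.53. It changed in the opposite direction to MFA1, which lies on the other strand in the annotation, and the strand setting of the counting is not given.

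Several stress and nutrient lists had more members lower than higher in kar4Δ, though many members did not pass. Called shares were 42.9% for general stress, 43.8% for hypoxic, 50% for amino acid, 33.3% for methionine and sulfur and 60% for hexose transport genes. Over all features the share was 27.5%, with 14.8% lower and 12.7% higher. Of 14 genes of the general stress response, 6 were lower and none higher, with a median of -0.21 (log2), and 3 were lower without both ste12Δ libraries of batch 2. HSP12, a small membrane heat-shock protein, had 6.32, 9.65, 15.2 and 10.8 CPM in kar4Δ and 38.0, 23.3, 46.5 and 42.3 CPM in ste12Δ. The groups did not overlap, and HSP12 was at -1.83 ± 0.33 (SE; edgeR adjusted p = 0.000178). CTT1, the cytosolic catalase, was at -1.33, and DDR2, which has no settled function, at -1.09. HSP26, HSP104 and HSP42 did not pass and lay between 0.00 and 0.04. Of 16 hypoxic genes, 1 was higher and 6 lower (3 lower without those libraries), with CYC7, an isoform of cytochrome c, at -1.33 and the wall mannoprotein gene TIR3 at -1.01. GAP1, the general amino acid permease, was chosen after its values were seen and had 51.6, 49.0, 32.5 and 33.7 CPM in kar4Δ and 145, 166, 78.8 and 68.5 CPM in ste12Δ, and it was at -1.42. Batch 1 was above batch 2 in both strains, and the strains did not overlap. No gene was higher among 22 of amino acid synthesis, of which 11 were lower (median -0.24), or among 21 of methionine and sulfur, of which 7 were lower (median -0.32). Without both ste12Δ libraries of batch 2, 1 of the 22 was lower, and 5 of the 21 were lower and 1 higher. With library totals alone, 18 of the 22 and 17 of the 21 were lower, beside 2218 of all 6161 features. Of 10 hexose transport genes, 1 was higher and 5 lower, and 2 were lower without those libraries. HXT4 was the higher one, at 0.65.

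**Figure D4:**
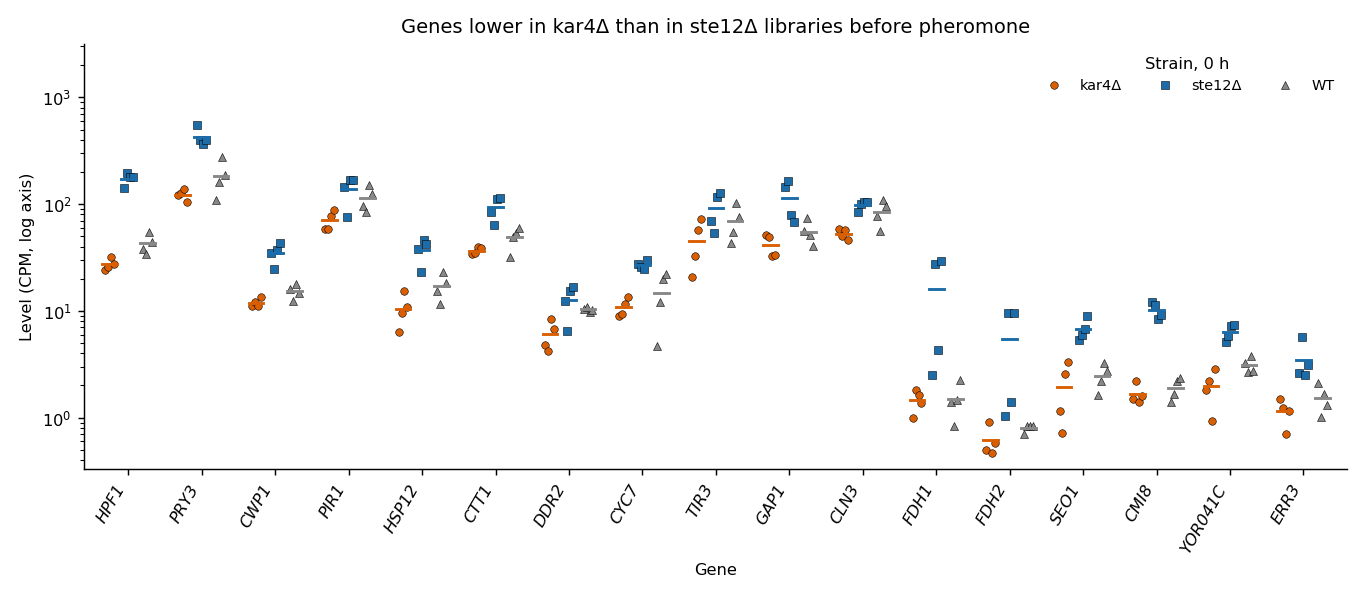
Level (CPM, log axis) of 17 genes that were lower in kar4Δ than in ste12Δ, in each 0 h library, with kar4Δ as orange circles, ste12Δ as blue squares and WT as grey triangles. A bar marks the mean of 4 libraries. The kar4Δ means lie below the ste12Δ means, but the points of the strains overlap for some genes, such as PIR1 and TIR3. FDH1 and FDH2 show 2 high and 2 low ste12Δ libraries.

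The remaining genes named by size were fewer and of mixed kinds. SEO1, a putative permease, was at -1.87, the uncharacterised YOR041C at -1.65 and ERR3, a relative of enolase, at -1.59 (log2), all at low level, with means of 1.95, 1.96 and 1.15 CPM in kar4Δ and 6.73, 6.36 and 3.48 CPM in ste12Δ. BSC4, chosen after its values were seen, had 11.7 ± 2.81 CPM in kar4Δ and 0.789 ± 0.131 CPM in ste12Δ, a log2 fold change of 3.84.

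Ribosome genes showed small shifts that depended on the scaling, with a change of sign for ribosome biogenesis. Of 132 ribosomal protein genes, 16 were higher and none lower, with a median of 0.23 (log2), and with library totals alone 2 were higher and the median was 0.06. Without both ste12Δ libraries of batch 2, 4 were higher. Of 30 genes of ribosome biogenesis, 12 were higher and none lower, with a median of 0.16, and with library totals alone none were higher, 2 were lower and the median was -0.02. Without both ste12Δ libraries of batch 2, 3 were higher. The share called among ribosomal protein genes, 12.1%, was below the 27.5% over all features.

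The strain difference was read in each batch. In batch 1 alone 936 features were called, and in batch 2 alone 1414. A test of the difference between the batches (batch 2 minus batch 1 of the kar4Δ over ste12Δ difference, edgeR's quasi-likelihood test) called 0 of 6123 features after adjustment, with 359 (5.86%) at an unadjusted p under 0.05. The count of features changed by at least 2-fold was 202 in batch 1 alone and 189 in batch 2 alone, against 204 over both.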

How the data were processed

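Per the labels' protocols, 50-nt reads came from ribosomal-RNA-depleted total RNA by a strand-preserving kit. The authors deposited 1 table of expected counts for 7127 features and 44 columns, of which 24.5% of values are whole. STAR, featureCounts and the build sacCer3 are named per the submitters' processing notes. Versions, counting options, the strand setting and the annotation are not given in the sources used here, so counts of Ty copies, paralogs and overlapping genes are uncertain. Identifiers were matched to the RefSeq annotation (R64), of which 6047 matched and 1080 did not.

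After rounding the expected counts, edgeR 4.0.16 (limma 3.58.1, R 4.3.3) was run with filterByExpr (minimum count 10, minimum total 15), TMM scaling, glmQLFit and glmQLFTest, and Benjamini-Hochberg adjustment over 6161 features with a threshold of 0.05. A model over 24 libraries (WT, kar4Δ and ste12Δ at 0 h and after alpha-factor, 6 groups, batch as a term) gave 1 estimate of the spread. DESeq2 1.42.0, other scalings, filters, fits and left-out libraries were alternatives. The fit was tested on simulated data with fewer changed genes than were called here, balanced in direction, and the same spread for all genes. That setting is simpler than these data, so the run checks the code and not the calls. Depth, 5.87 M to 15.6 M counts (M, mega) per library compared, limits precision for genes with few counts. The spread between libraries, which went beyond sampling noise, limits it as well. Floors cover counting error only.

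Replicates of a strain differed by far more than sampling noise (chi-square per degree of freedom of at least 13.4), so none was counted as a duplicate. Deviations of same-numbered kar4Δ and ste12Δ libraries from their strain-and-batch means correlated at 0.23 in batch 1 and 0.124 in batch 2, so the replicate number was also fitted as a block; the pairing comes from these correlations and not from the labels.

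Named genes were the deleted genes, members of gene lists, and, for either direction, the 10 largest fold changes of called genes whose mean log2 CPM was 1 or more and whose strains did not overlap. Others are said to be chosen after their values were seen. The members of the comparison and the lists were chosen with earlier results of these data known. The listed genes FLO8, FKS2 and the arginine gene pair under a joint name were not analysed here. The result of 1 listed gene is not reported here.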

Additional observations from a re-analysis of the deposited data

Results flagged for a closer look

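For each gene named, the 4 libraries of a strain were examined for a library whose gap to its nearest neighbour took up more of the range than Dixon's 95% critical value for 4 libraries. Of 188 such groups, 5 were past it, and chance alone gives about 1 in 20. FYV6, a gene of the splicing machinery chosen after its values were seen, had 119 CPM in kar4Δ replicate 2 and 6.20 to 7.49 CPM in the other kar4Δ libraries, with a ratio of 0.989. This library is the deepest of the 8 and has the highest Ty share, 27.1%. The thiol peroxidase gene AHP1 had 201 CPM in kar4Δ replicate 4 and 121 to 128 CPM in the others (0.91). HSL7 had 228 CPM in kar4Δ replicate 3 and 190 to 196 CPM in the others (0.845). CIK1 had 11.8 CPM in kar4Δ replicate 1 and 10.4 to 10.6 CPM in the others (0.889). TEC1 had 33.1 CPM in ste12Δ replicate 2 and 40.8 to 41.0 CPM in the other ste12Δ libraries (0.972).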

How the results depend on the processing

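The 94 genes followed in the text were refitted under 21 alternatives, and 81 of them kept their direction and call in each that tested them. Some genes had no value in the fits of the 8 or 12 libraries at 0 h or in that of protein-coding features. Over all 1966 values, 1937 kept both, 27 lost the call and 2 reversed. Both reversals were FYV6, whose 1.92 (log2, kar4Δ over ste12Δ) became -0.11 in batch 2 alone and -0.11 without kar4Δ replicate 2, and lay between -0.11 and 2.24 with 1 library left out at a time. The 1697 called features became 936 in batch 1 alone, 997 without a batch term and 1091 without both ste12Δ libraries of batch 2, an alternative chosen after seeing the data. The 784 higher features became 496 in batch 1 alone, 311 with library totals alone and 475 without a batch term. The 913 lower features became 440 in batch 1 alone, 2218 with library totals alone, 522 without a batch term and 566 without both ste12Δ libraries of batch 2. These have fewer libraries, another scaling or no batch term by construction. Leaving out 1 library at a time gave 1388 to 1543 called features, 647 to 796 higher, 688 to 787 lower and 188 to 209 changed by at least 2-fold. The replicate block gave 1647 called features, 761 higher and 886 lower, and among the genes followed it changed the call of FYV6 (1.53, edgeR adjusted p = 0.0699). DESeq2 called 1754. Genes with few counts, such as IME4, are limited by depth.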

Other observations

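Other nutrient lists gave smaller and mixed differences between kar4Δ and ste12Δ. Of 19 iron uptake genes, 5 were higher in kar4Δ and 3 lower, and 4 were higher and 1 lower without both ste12Δ libraries of batch 2. FET3, the multicopper oxidase of high-affinity iron uptake, had 995, 803, 1054 and 750 CPM in kar4Δ and 377, 263, 379 and 542 CPM in ste12Δ, a log2 fold change of 1.24 with no overlap. The siderophore transporter gene ENB1 was higher by 0.82, a call that was lost without both ste12Δ libraries of batch 2 (0.60, edgeR adjusted p = 0.0881), and the wall mannoprotein gene FIT1 was lower, at -0.62. Of 15 phosphate genes, 1 was higher and 1 lower, and PHO3, an acid phosphatase, had 659 ± 27.2 CPM in kar4Δ and 366 ± 36.1 CPM in ste12Δ (SD, n = 4 each), a log2 fold change of 0.85. Of 11 zinc genes, 2 were higher and 1 lower. The shares called were 42.1% for iron, 13.3% for phosphate and 27.3% for zinc, against 27.5% over all features. The zinc share was thus near that of all features. Both higher zinc calls were lost without both ste12Δ libraries of batch 2 (1 lower) and with library totals alone (2 lower). None of the 6 vitamin B6 genes passed the test.

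Of 15 oxidative stress genes, 1 was higher and 4 lower, with AHP1 at -0.74 (log2), a call that was lost in batch 1 alone (-0.65, edgeR adjusted p = 0.115) and without both ste12Δ libraries of batch 2 (-0.51, edgeR adjusted p = 0.194). Without those ste12Δ libraries, 1 gene of the 15 was higher and none lower. Of 14 trehalose and glycogen genes, 2 were higher and 6 lower (2 and 2 without those libraries). Of 13 fatty acid and propionate genes, 5 were lower and none higher (3 lower without them). The shares called were 33.3% for oxidative stress, 57.1% for trehalose and glycogen and 38.5% for fatty acid and propionate genes. Of 33 nuclear genes of the respiratory chain, 3 were lower and none higher (9.09% called, against 27.5% over all features), and all 3 calls were lost without both ste12Δ libraries of batch 2.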
